A study of Mus musculus with 6 samples.

Results

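The ATP-binding cassette (ABC) genes were followed in B16F10 cells, an established mouse melanoma line, 8 h after a change to medium with rPPAA18C6@Dox at 50 μg/mL (3 libraries) or with PBS alone (3 libraries). The members are all genes of the deposited table whose symbol begins with Abc, a subfamily letter from a to g and a number, which gave 34 of its 15726 genes. The labels give the preparation only this code name, and the study's title places it among nanoplatforms carrying a potassium ionophore. Poly(A) RNA was sequenced with a strand-specific kit. The labels do not tell if the replicates, 3 per group, were cultured separately, so a p-value here reflects variation among libraries that could be technical. The 3 PBS columns carry that name, and the other 3 columns were taken as rPPAA18C6@Dox by elimination, so every direction given here rests on that reading.

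ABC proteins bind and split ATP with a conserved nucleotide-binding domain. Most couple this to membrane-spanning domains and move lipids, peptides, metabolites or drugs across the plasma membrane or an organelle membrane, whereas subfamilies E and F have no membrane domain and act with the ribosome. In tumours the family is best known for drug export: P-glycoprotein, encoded in mice by Abcb1a and Abcb1b, the multidrug resistance protein Abcc1 and the breast cancer resistance protein Abcg2 carry many cytotoxic drugs, anthracyclines among them, out of cells. The labels do not spell out what Dox stands for.

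Values are FPKM (reads scaled by gene length and by library depth), which allow levels of different genes to be compared. Each library held between 36380462 and 37067116 recovered reads. Melanocyte and melanoma markers were abundant, with 7 of 7 tested. Their summed level was 7199 to 7228 FPKM in rPPAA18C6@Dox libraries and 6145 to 6233 FPKM in PBS libraries. All 7 had their rPPAA18C6@Dox libraries above their PBS libraries, which held for 12.6% of all tested genes. Of these, 5 passed in limma (adjusted p under 0.05), which called 4.66% of all tested genes higher. Of markers of other cells, 2 of 7 immune, 5 of 6 fibroblast, 2 of 5 endothelial and 1 of 6 epithelial genes had a row, and none of these was at 0 in all libraries. Their summed levels in rPPAA18C6@Dox and PBS libraries were 2.07 to 2.40 and 1.92 to 2.26 FPKM for immune markers, 3.70 to 4.07 and 4.24 to 4.35 FPKM for fibroblast markers, 4.72 to 4.88 and 2.90 to 3.23 FPKM for endothelial markers, and 0.159 to 0.280 and 0.146 to 0.175 FPKM for the epithelial marker Cdh1. In limma the immune marker Cd68 passed (adjusted p = 0.0311) but not in voom (0.242), and the other immune gene, Lyz2, was lower without being tested (0.572 ± 0.199 and 0.782 ± 0.202 FPKM, SD, n = 3 each). The endothelial marker Vwf passed (adjusted p = 5.91e-05 by limma) and Pecam1 did not (0.920). Ptprc, Cd3e, Epcam and Cdh5 were not analysed here, and the part of other cells in the results was not tested.

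Summed over the family, the groups met at 441 FPKM. The 34 genes together summed to 444, 441 and 443 FPKM in the rPPAA18C6@Dox libraries, against 440, 436 and 441 FPKM in the PBS libraries. Subfamilies E and F, the members without a membrane domain, made up 54.5% of that sum over all libraries. The most abundant genes were Abcf2, with a mean over the 6 libraries of 88.1 FPKM, Abce1 (73.4 FPKM) and Abcf1 (65.8 FPKM). Members of organelle membranes followed, among them Abcd3 of peroxisomes (25.4 FPKM) and the porphyrin carrier Abcb6 (18.8 FPKM). The drug efflux genes lay in the middle, Abcc1 at 11.6 FPKM, Abcb1b at 8.50 FPKM and Abcg2 at 5.93 FPKM. At the lower end 8 genes (Abcb9, Abcg4, Abcb4, Abcd2, Abca4, Abca8a, Abca6 and Abcc6) stayed under 1 FPKM in both groups and were left out of the main test. The lowest member that was tested, Abca8b, reached 1.23 FPKM in its higher group, and the highest one left out, Abcb9, reached 0.683 FPKM. RefSeq lists 50 protein-coding genes with such symbols in the mouse, and the other 16, Abcb1a, Abcg1 and Abcb5 among them, were not analysed here.

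**Figure D1:**
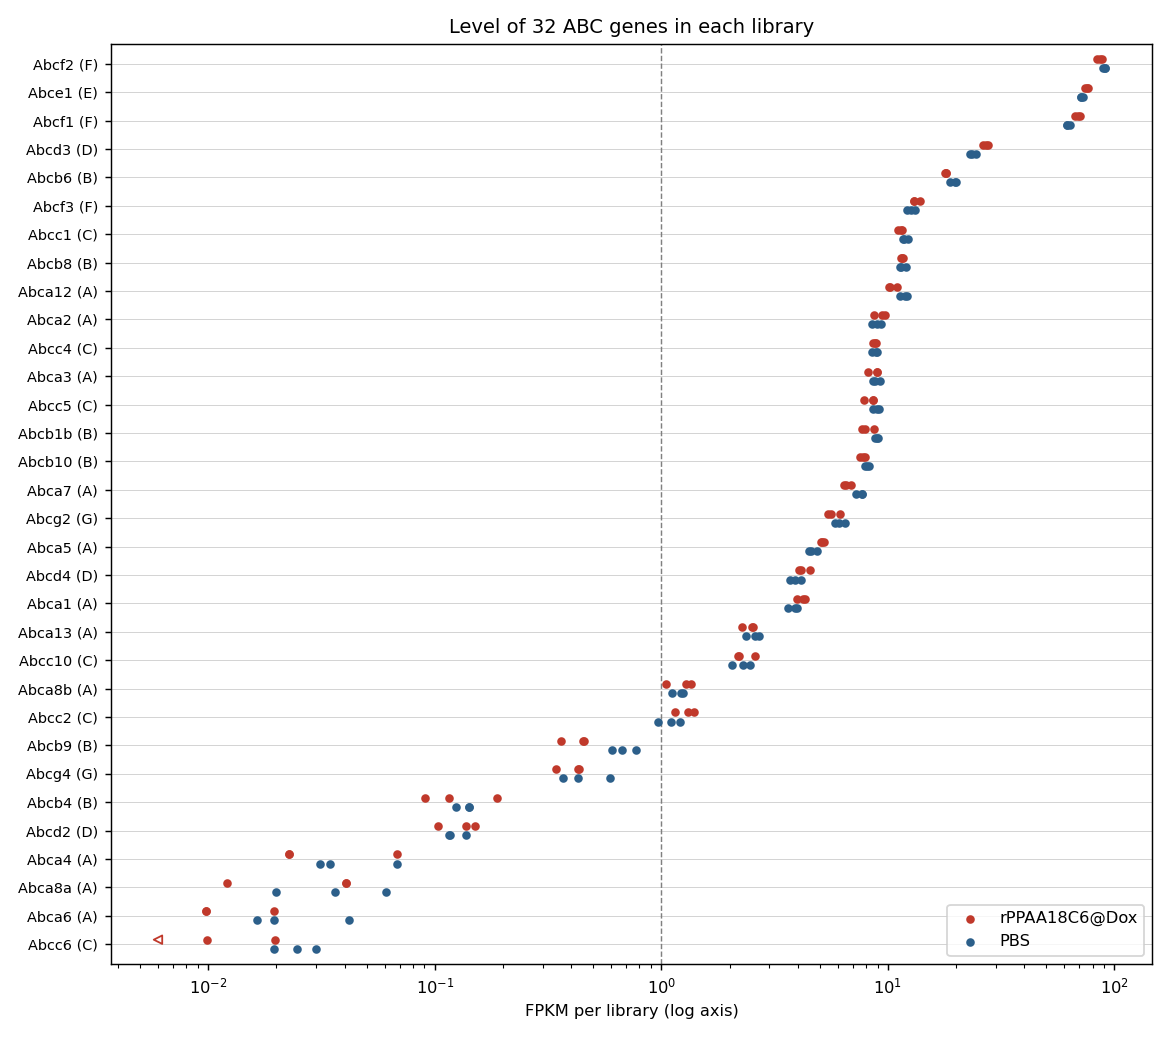
FPKM of 32 ABC genes in each library on a log axis, 3 rPPAA18C6@Dox libraries (red) above 3 PBS libraries (blue) for each gene, with the subfamily letter in brackets. The dashed line marks 1 FPKM, below which 8 genes were not tested, and the open triangle marks a library listed at 0. Genes differ far more from each other than the groups differ within any gene that was tested.

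Of the 26 tested genes 4 passed, 2 higher and 2 lower in the rPPAA18C6@Dox libraries (limma on log2(FPKM + 1), adjusted p under 0.05 over all 10680 tested genes). That is 15.4% of the tested members, against 9.93% of all tested genes (4.66% higher and 5.26% lower). All 4 changes were small. The peroxisomal Abcd3 was 14.1% higher and the translation factor Abcf1 10.1% higher, while the lipid transporters Abca7 and Abca12 fell by 12.8% and 11.3%. An unadjusted p under 0.05 was found for 9 of the 26 genes and for 26.2% of all tested genes. Estimates were above 0 in 11 of the 26 genes and in 43.5% of all tested genes. The median log2 fold change of the 26 genes was -0.008, against -0.013 over all tested genes, and its median size was 0.075, against 0.055. The groups of libraries did not overlap in 11 of the 26 genes, 4 higher and 7 lower, or 42.3%, where 31.3% of all tested genes showed no overlap (12.6% higher and 18.7% lower). By the p-values of the authors' deposited table, 9 of the 26 genes were under 0.05, against 23.2% of all tested genes. In bulk libraries such as these, fewer cells holding a transcript and less of it per cell cannot be told apart.

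**Figure D2:**
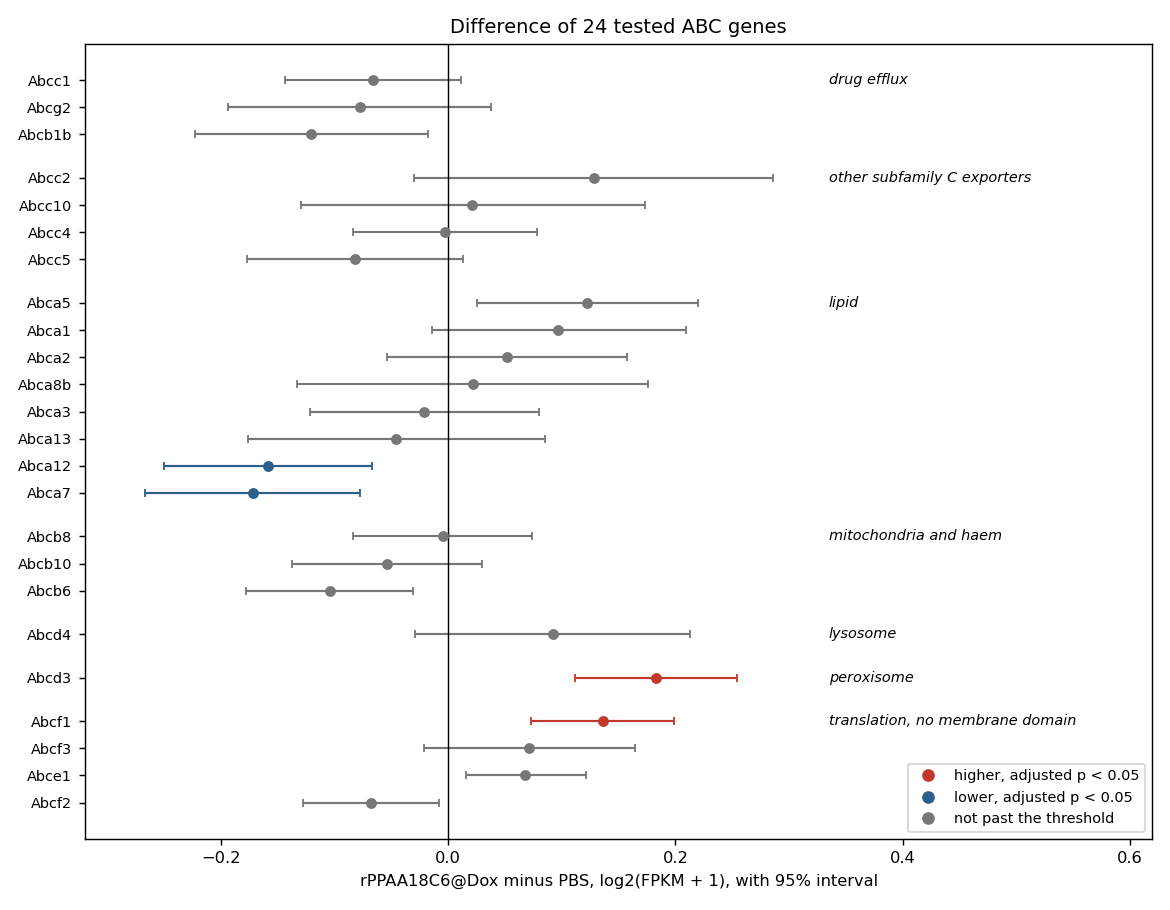
Difference between rPPAA18C6@Dox and PBS for 24 tested ABC genes on the log2(FPKM + 1) scale, with limma's 95% interval (3 libraries per group), grouped by role. Abcd3 (0.18) and Abcf1 (0.14) lie on the higher side, Abca7 (-0.17) and Abca12 (-0.16) on the lower side. The 3 drug efflux genes are all left of 0 without passing the threshold, where 43.5% of all tested genes had an estimate above 0.

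The promoters of the 4 genes that passed are shown so that those that rose can be set beside those that fell. Each is the 250 bases before the gene's RefSeq start on GRCm38.p6 (the deposited values were made on mm9), 5′ to 3′ on the gene's strand. Capitals mark a CACGTG E-box, a GGGCGG GC box or a CCAAT box on either strand. TATAAA and the cAMP response element TGACGTCA were also searched and occur in none of these 4. Abcd3 has a further listed start downstream, not printed. The windows are Abcd3 chr3:121815303-121815552 (minus strand), Abcf1 chr17:35969751-35970000 (minus), Abca7 chr10:79996244-79996493 (plus) and Abca12 chr1:71414911-71415160 (minus).
Abcd3: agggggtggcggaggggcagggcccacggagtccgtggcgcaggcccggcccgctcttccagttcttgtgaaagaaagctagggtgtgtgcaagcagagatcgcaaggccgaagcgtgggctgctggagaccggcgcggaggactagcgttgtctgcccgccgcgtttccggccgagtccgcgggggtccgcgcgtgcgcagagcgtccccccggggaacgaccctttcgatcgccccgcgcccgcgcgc
Abcf1: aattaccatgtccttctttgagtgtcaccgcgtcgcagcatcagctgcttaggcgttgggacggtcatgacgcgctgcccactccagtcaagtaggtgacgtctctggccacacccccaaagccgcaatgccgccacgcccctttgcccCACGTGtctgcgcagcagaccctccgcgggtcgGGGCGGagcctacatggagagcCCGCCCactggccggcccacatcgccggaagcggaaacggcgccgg
Abca7: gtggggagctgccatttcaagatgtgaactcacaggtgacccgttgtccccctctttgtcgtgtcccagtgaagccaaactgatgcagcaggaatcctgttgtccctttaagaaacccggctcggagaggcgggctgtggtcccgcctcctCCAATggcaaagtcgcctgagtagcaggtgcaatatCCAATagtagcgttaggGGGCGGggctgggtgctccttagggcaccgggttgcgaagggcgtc
Abca12: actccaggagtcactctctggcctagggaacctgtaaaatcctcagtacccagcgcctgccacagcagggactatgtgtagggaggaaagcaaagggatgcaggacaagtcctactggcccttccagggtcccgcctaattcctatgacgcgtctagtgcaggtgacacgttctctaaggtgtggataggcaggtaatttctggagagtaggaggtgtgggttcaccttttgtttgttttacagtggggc
The windows of Abcd3 and Abcf1, the genes that rose, hold 34 and 25 CpG pairs and are 72.0% and 66.0% G or C. Those of Abca7 and Abca12, the genes that fell, hold 12 and 5 CpG pairs and are 58.8% and 53.2% G or C. Members that were not called varied on both sides. With estimates above 0, Abca5 holds 25 CpG pairs and Abcc2 1, and with estimates below 0, Abcc5 holds 17 and Abca13 3. Whether CpG content goes with direction was not tested. The median of all 32851 listed promoters is 6 CpG pairs and 52.4% G or C. The E-box is in Abcf1 alone of these 4. Over all listed promoters of members, some genes having several, it is in 4 of 31, against 6.0% of all promoters. The GC box is in 18 of the 31, against 32.7% of all promoters, and the CCAAT box in 8 of the 31, against 33.8%. The listed promoters belong to 27025 genes, many of them not tested here. The sets are therefore unlike, and these shares cannot show a trait of the family. These matches are descriptions of letters, and no binding was measured.

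None of the drug efflux genes passed the threshold. Both limma and voom on the recovered reads called 0 of the 3 with a row, against 9.93% and 11.7% of all genes they tested. Abcb1b alone had an unadjusted limma p under 0.05, 1 of 3 against 26.2% of all tested genes. By the authors' deposited p-values, whose test is not named, Abcb1b alone was under 0.05 as well (0.0419), against 23.2% of all tested genes. All 3 estimates were below 0, where 43.5% of all tested genes had an estimate above 0. The 3 genes summed to 25.2 ± 0.472 FPKM in rPPAA18C6@Dox libraries and 26.9 ± 0.494 FPKM in PBS libraries (SD, n = 3 each). Abcb1b, which encodes a form of P-glycoprotein, had 8.72, 7.90 and 7.71 FPKM in the rPPAA18C6@Dox libraries, against 8.73, 9.02 and 8.92 FPKM in the PBS libraries. The groups only just did not overlap, since rPPAA18C6@Dox replicate 1 sat beside the lowest PBS library. The log2 fold change was -0.12 (95% interval -0.22 to -0.02, adjusted p = 0.129 by limma), and without rPPAA18C6@Dox replicate 1 it was -0.17 with an adjusted p of 0.0434, the 1 of 13 alternative fits that called it. Of the 50-base stretches of its longest coding transcript, 18.3% also occur in transcripts of other genes, mostly Abcb1a, and how the authors assigned reads that fit both is not given in the sources used here, so Abcb1b may hold reads of its neighbour.

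Abcc1, which exports glutathione conjugates along with drugs, had 11.5, 11.1 and 11.4 FPKM in the rPPAA18C6@Dox libraries, against 12.3, 11.6 and 11.8 FPKM in the PBS libraries. The groups did not overlap, but by little: the log2 fold change was -0.07 (95% interval -0.14 to 0.01, adjusted p = 0.265 by limma). Abcg2, a half-size transporter that works as a dimer, had 5.45, 6.15 and 5.63 FPKM in the rPPAA18C6@Dox libraries, against 6.46, 6.06 and 5.83 FPKM in the PBS libraries. Here the groups overlapped, and the log2 fold change was -0.08 (95% interval -0.19 to 0.04, adjusted p = 0.383). The intervals of Abcc1 and Abcg2 include 0, and the highest of the 3 upper bounds was 0.04 on this scale. A value that misses the threshold does not show that a gene was the same in both groups, and mRNA says nothing about protein or about transport.

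**Figure D3:**
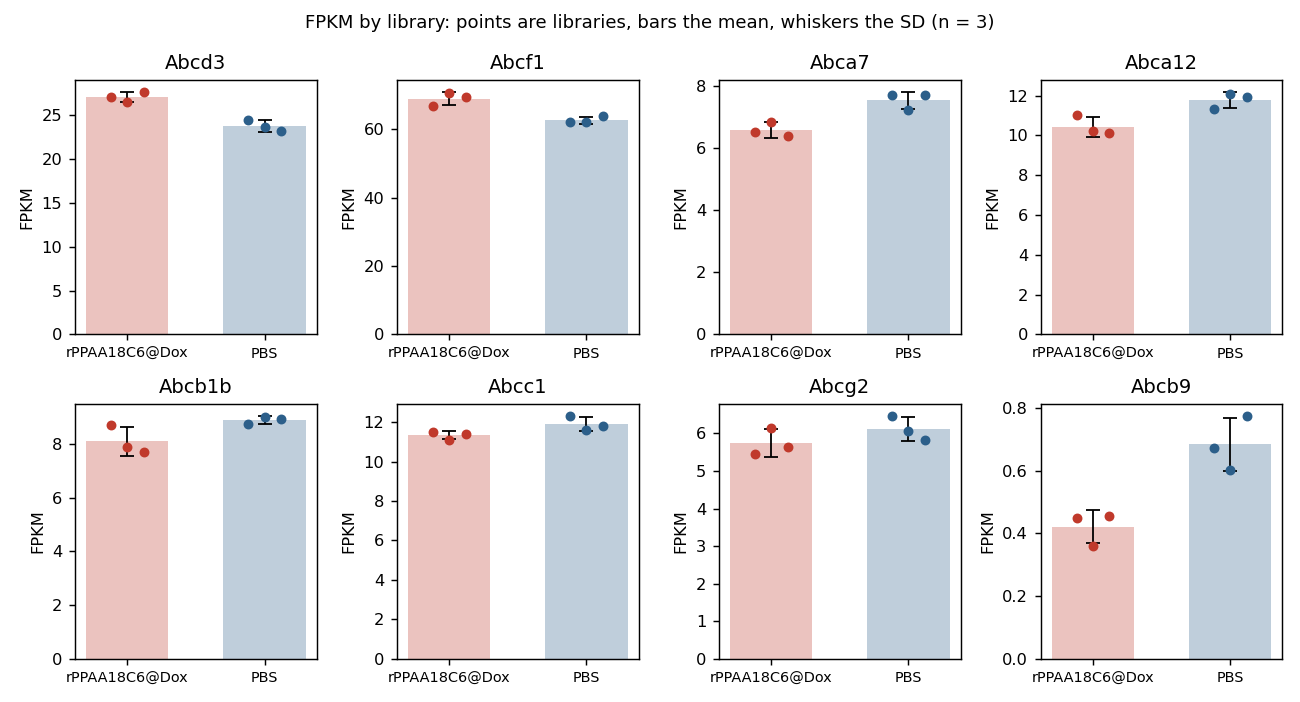
FPKM in each library for the 4 genes that passed (Abcd3, Abcf1, Abca7, Abca12), the 3 drug efflux genes and Abcb9, with rPPAA18C6@Dox left of PBS. Bars are means, whiskers the SD of 3 libraries and points single libraries, on axes that start at 0. The groups are separate in the 4 called genes and in Abcb9, and overlap in Abcg2.

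Of the other exporters of subfamily C, which carry organic anions and cyclic nucleotides, limma and voom each called 0 of the 4 tested, and the number with an unadjusted limma p under 0.05 was 0. Over all genes they tested, limma called 9.93% and voom 11.7%, and 26.2% had an unadjusted limma p under 0.05. With only 4 genes, 0 calls does not set these exporters apart. Abcc4, an exporter of cyclic nucleotides and prostaglandins, was level, with 8.62, 8.79 and 8.90 FPKM in rPPAA18C6@Dox libraries, against 8.86, 8.54 and 8.97 FPKM in PBS libraries (95% interval of the log2 fold change -0.08 to 0.08). Its sign turned with quantile normalization and with voom. Abcc5, another cyclic nucleotide exporter, had 8.60, 8.55 and 7.88 FPKM in rPPAA18C6@Dox libraries, against 8.63, 8.91 and 9.11 FPKM in PBS libraries. These groups touched without overlapping (log2 fold change -0.08, SE 0.0425, adjusted p = 0.260 by limma). Abcc2, the organic anion pump known from the bile side of liver cells, was scarce, at 1.29 ± 0.129 FPKM with rPPAA18C6@Dox and 1.09 ± 0.124 FPKM with PBS (SD, n = 3 each), and its groups overlapped. Abcc10 overlapped too, at 2.32 ± 0.230 and 2.27 ± 0.198 FPKM. Abcc6 was almost absent, with 0 to 6 recovered reads per library.

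In subfamily A, the large lipid transporters, 2 of the 8 tested genes fell and none rose. Of all tested genes 5.26% were called lower and 4.66% higher. Estimates were above 0 in 4 of the 8, and in 43.5% of all tested genes. Abca7, which moves phospholipids to the outer face of membranes, had 6.51, 6.86 and 6.39 FPKM in rPPAA18C6@Dox libraries, against 7.70, 7.23 and 7.70 FPKM in PBS libraries. Every rPPAA18C6@Dox library was below every PBS library (log2 fold change -0.17, SE 0.0425, adjusted p = 0.0321 by limma). Abca12, which loads glucosylceramide into the lamellar granules of skin keratinocytes, had 11.0, 10.2 and 10.1 FPKM in rPPAA18C6@Dox libraries, against 11.3, 12.1 and 11.9 FPKM in PBS libraries. It was the most abundant member of subfamily A, and its groups were separate as well, with rPPAA18C6@Dox replicate 1 nearest to the PBS libraries (log2 fold change -0.16, SE 0.0412, adjusted p = 0.0390 by limma). Both calls depended on the fit, with Abca7 called in 8 and Abca12 in 6 of 14 fits, the reported one included. Abca7 missed the threshold when any of rPPAA18C6@Dox replicates 1 and 3 and PBS replicates 1 and 3 was left out, its adjusted p then reaching 0.104. For Abca12 the same held for replicates 2 and 3 of both groups, with an adjusted p of up to 0.121. Neither passed when genes of low level were kept in (0.0760 for Abca7 and 0.0884 for Abca12), and Abca12 also missed with no mean-variance trend (0.0601) and with quantile normalization (0.0510).

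Abca5, found in lysosomes and late endosomes, stood on the other side, with 5.21, 5.13 and 5.08 FPKM in rPPAA18C6@Dox libraries, against 4.49, 4.88 and 4.56 FPKM in PBS libraries. The groups did not overlap, but the adjusted p was 0.109 by limma (log2 fold change 0.12, SE 0.0438), and voom on the recovered reads called it (log2 fold change 0.17, adjusted p = 0.0171). Abca1, which hands cholesterol and phospholipid to apolipoprotein A-I, had 4.31, 4.24 and 3.95 FPKM in rPPAA18C6@Dox libraries, against 3.63, 3.90 and 3.97 FPKM in PBS libraries. Its groups overlapped at a single pair of libraries (log2 fold change 0.10, SE 0.0499, adjusted p = 0.253). Abca2, a sterol-related transporter of endosomes and lysosomes, had 9.45, 9.70 and 8.69 FPKM in rPPAA18C6@Dox libraries, against 8.54, 8.92 and 9.29 FPKM in PBS libraries, which overlapped (log2 fold change 0.05, adjusted p = 0.534). The surfactant lipid transporter Abca3, Abca13 and Abca8b also overlapped, with log2 fold changes of -0.02, -0.05 and 0.02. The signs of Abca3 and Abca8b turned in fits that left out 1 library. Abca4, the retinoid carrier of photoreceptors, Abca6 and Abca8a had 3 to 24 recovered reads in each library, too few for a comparison. Outside subfamily A, the bile phosphatidylcholine transporter Abcb4 had 14 to 29 reads and the sterol transporter Abcg4 69 to 121. Abcg4 was at 0.344, 0.427 and 0.434 FPKM in rPPAA18C6@Dox libraries, against 0.596, 0.368 and 0.427 FPKM in PBS libraries, with the groups overlapping.

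The 4 members of mitochondria and of haem metabolism summed to 69.0, 68.6 and 68.2 FPKM in rPPAA18C6@Dox libraries, against 71.0, 70.4 and 70.5 FPKM in PBS libraries. Calls were 0 of 4 in limma and 0 in voom, which called 9.93% and 11.7% of all genes they tested. An unadjusted limma p under 0.05 was found for 1 gene, Abcb6, and for 26.2% of all tested genes. All 4 limma estimates were below 0, though not with voom, where 43.5% of all tested genes had a limma estimate above 0. Abcb6 had 2057, 2059 and 2035 recovered reads in rPPAA18C6@Dox libraries (18.0 ± 0.109 FPKM, SD, n = 3), against 2264, 2283 and 2110 in PBS libraries (19.5 ± 0.687 FPKM, SD, n = 3). The groups did not overlap (log2 fold change -0.10, SE 0.0329, adjusted p = 0.0744 by limma), and 90.3% of the 50-base stretches of its longest coding transcript occur in the same-strand gene model Gm29253, which was not analysed here. Abcb8 of the inner mitochondrial membrane was at 11.5 ± 0.149 FPKM with rPPAA18C6@Dox and 11.6 ± 0.390 FPKM with PBS, and Abcb10, which supports haem synthesis, at 7.75 ± 0.207 and 8.09 ± 0.180 FPKM (SD, n = 3 each). The groups of both overlapped, and the sign of Abcb8 turned with quantile normalization and with voom.

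Abcb9, a peptide transporter of lysosomes related to the Tap genes of antigen presentation, is singled out here after its values were seen. Its relative difference was the largest among members with at least 67 recovered reads in every library, a cutoff equal to its own lowest count. Below that cutoff Abcc6 (ratio of means 0.400, 0 to 6 reads per library) and Abca6 (0.503, 3 to 13 reads) differed more. Abcb9 was under the 1 FPKM minimum, with 0.449, 0.361 and 0.454 FPKM in rPPAA18C6@Dox libraries, against 0.673, 0.603 and 0.773 FPKM in PBS libraries. In recovered reads these were 83, 67 and 84 with rPPAA18C6@Dox, against 126, 112 and 142 with PBS. Every rPPAA18C6@Dox library lay below every PBS library, and the ratio of means was 0.617. It passed in both fits that included it, with no filter on low values (log2 fold change -0.24 on the log2(FPKM + 1) scale, adjusted p = 0.0442 by limma) and with voom on the recovered reads (log2 fold change -0.68, SE 0.186, adjusted p = 0.0148). Abcd4, which exports vitamin B12 from lysosomes, had 4.55, 4.06 and 4.14 FPKM with rPPAA18C6@Dox, against 3.90, 3.71 and 4.15 FPKM with PBS, and overlapped (log2 fold change 0.09, adjusted p = 0.318 by limma).

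Among the peroxisomal half-transporters of subfamily D, which bring long-chain fatty acids in for oxidation, 1 of the 2 tested rose. Over all tested genes 4.66% were called higher. Abcd3, also called PMP70 and an abundant protein of the peroxisome membrane, had 27.0, 26.4 and 27.6 FPKM in rPPAA18C6@Dox libraries, against 24.4, 23.6 and 23.1 FPKM in PBS libraries. The groups were well apart (log2 fold change 0.18, SE 0.0318, adjusted p = 0.00667 by limma), and it was the only member called in all 13 alternative fits, with adjusted p from 1.19e-05 to 0.0310. Abcd2 was scarce, with 22 to 32 reads per library.

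The members without a membrane domain were the most abundant and had small differences, 1 of 4 passing, against 9.93% of all tested genes. Abcf1, which binds the initiation factor eIF2, had 66.8, 70.7 and 69.3 FPKM in rPPAA18C6@Dox libraries, against 62.0, 62.0 and 63.8 FPKM in PBS libraries. The groups did not overlap (log2 fold change 0.14, SE 0.0281, adjusted p = 0.0152 by limma). Leaving out rPPAA18C6@Dox replicate 2, PBS replicate 1 or PBS replicate 2 took its adjusted p above the threshold, to at most 0.0582, as did a fit with no mean-variance trend (0.0522). Abce1, which splits ribosomes for recycling, had 75.3, 74.1 and 76.1 FPKM in rPPAA18C6@Dox libraries, against 72.4, 71.2 and 71.2 FPKM in PBS libraries. These did not overlap either (log2 fold change 0.07, SE 0.0236, adjusted p = 0.0973 by limma), and voom called the gene (adjusted p = 0.0244). Abcf2 went the other way without passing, with 86.4, 83.5 and 88.2 FPKM in rPPAA18C6@Dox libraries, against 90.9, 88.9 and 90.9 FPKM in PBS libraries (log2 fold change -0.07, SE 0.0268, adjusted p = 0.141). Abcf3, a relative of yeast Gcn20, overlapped at 13.3 ± 0.497 and 12.7 ± 0.572 FPKM (SD, n = 3 each). Transcripts of Abce1, Abcf1 and Abcf2 share 1.60%, 2.54% and 0.99% of their 50-base stretches with transcripts of other genes, most of them predicted gene models.

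**Figure D4:**
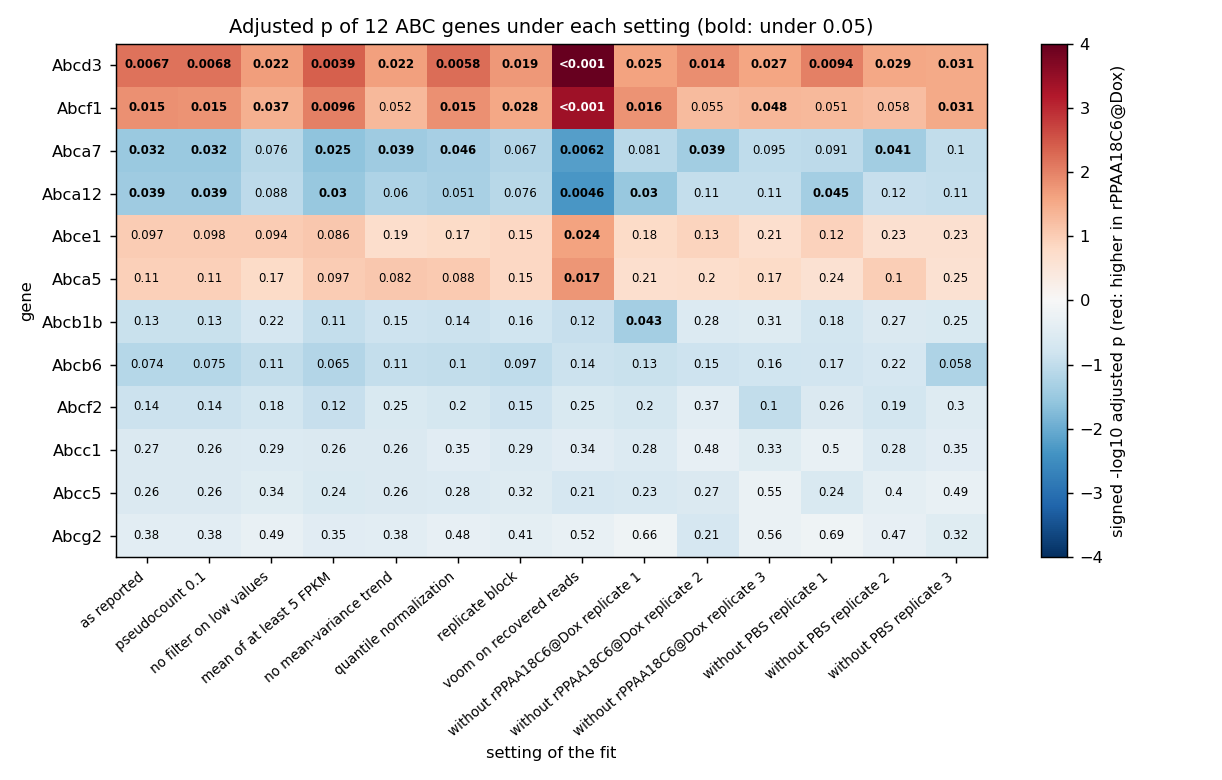
Adjusted p of 12 ABC genes (rows) in the fit as reported and in 13 alternative fits (columns), coloured by the sign of the difference and the −log10 of that p (red, higher in rPPAA18C6@Dox). Abcd3 is under 0.05 in every column, while Abcf1, Abca7 and Abca12 cross the threshold in some, and Abcc1 and Abcg2 are above it throughout.

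Genes that work with the family were read from fixed lists, in which 84 genes were tested and 17 passed, 10 higher and 7 lower (20.2%, against 9.93% of all tested genes). These lists were drawn up with earlier results of the same data known, and several of the genes, such as Ppargc1a, Mitf and Calr, were already known to move. Among 12 tested genes of sterol sensing and cholesterol efflux 2 rose and 4 fell. The cholesteryl ester hydrolase Nceh1 rose, at 22.1 ± 0.219 FPKM with rPPAA18C6@Dox and 17.4 ± 0.251 FPKM with PBS (log2 fold change 0.32, adjusted p = 1.00e-04 by limma). The HDL receptor Scarb1 fell, at 38.1 ± 0.564 and 44.1 ± 0.864 FPKM (-0.21, adjusted p = 0.00153), as did Rxra, the partner of the sterol-sensing LXR receptors, at 21.2 ± 0.533 and 23.7 ± 0.455 FPKM (-0.16, adjusted p = 0.0122). The sterol-sensing receptor gene Nr1h2 was at 18.9 and 19.2 FPKM (adjusted p = 0.656), and Nr1h3 was under the minimum at 0.0776 and 0.0861 FPKM. Of 13 tested regulators reported for drug efflux genes, 3 rose (Ppargc1a, Mitf and Hif1a) and 2 fell (Nfkb1 and Trp53). Ppargc1a differed most, at 9.98 ± 0.280 FPKM with rPPAA18C6@Dox and 4.56 ± 0.188 FPKM with PBS (log2 fold change 0.98, adjusted p = 1.84e-06 by limma). Mitf, the melanocyte master factor, was at 56.4 ± 0.623 FPKM with rPPAA18C6@Dox and 45.5 ± 0.977 FPKM with PBS, and Hif1a at 51.7 ± 0.337 and 46.0 ± 0.196 FPKM. Nfe2l2, which encodes NRF2, did not pass, at 87.2 and 89.4 FPKM (adjusted p = 0.462).

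Of 14 tested genes of glutathione supply and conjugation, on which Abcc1 draws, 3 rose and 1 fell. Over all tested genes limma called 4.66% higher and 5.26% lower. Gsta4 was at 57.1 ± 0.535 FPKM with rPPAA18C6@Dox and 51.4 ± 0.176 FPKM with PBS (log2 fold change 0.15, adjusted p = 0.00396 by limma), Mgst1 at 22.7 ± 0.447 and 20.3 ± 0.568 FPKM (0.16, adjusted p = 0.0126) and Ggt1 at 3.09 ± 0.0946 and 2.41 ± 0.298 FPKM (0.26, adjusted p = 0.0329). The glutathione reductase gene Gsr fell (-0.15, adjusted p = 0.0486). Of 7 genes of peptide loading Calr and Canx rose and none fell, to be read against the same shares of all tested genes. Calr was already known to move when the list was drawn up. The peptide transporter genes Tap1 and Tap2, ABC genes under other names, did not pass (adjusted p = 0.746 and 0.433 by limma). None of the 14 haem and iron-sulfur partners, 9 peroxisome partners, 10 translation partners or 3 other drug carriers passed, with limma and voom both at 0 calls. Those with an unadjusted limma p under 0.05 numbered 2, 1, 1 and 1 in that order, against 26.2% of all tested genes. The potassium channel partners of the sulfonylurea receptors, Kcnj8 and Kcnj11, were not analysed here.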

How the data were processed

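RNA sequencing of B16F10 cells gave 6 libraries, 3 per group. The authors' deposited table holds 1 FPKM value per gene and library, a unit inferred from the values since the header does not name it, and a p-value per gene from the authors' own comparison, with no test named in the header. Per the submitters' processing notes the build was mm9. No aligner, counter, strand setting or filter is named there or in the header. Whole reads were recovered from the steps of the FPKM values with 1 factor per gene, within a tolerance of 0.01, for 15726 of 15726 genes. They are the smallest whole numbers that fit, and gave 36380462 to 37067116 reads per library. The mean chi-square per gene between libraries of a group was 2.38 to 3.98, where counting noise alone gives 1, so no pair agreed within counting noise and all 6 libraries were kept as samples.

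Values were put on the log2(FPKM + 1) scale and the 10680 genes averaging at least 1 FPKM in either group were fitted with limma (3.58.1, R 4.3.3), allowing a mean-variance trend. Tests were two-sided and unpaired. Benjamini-Hochberg adjusted p-values were taken over all fitted genes and called under 0.05. This scale understates the change of low genes, and percent differences are of mean FPKM. The script was tested on simulated data. Alternatives were a pseudocount of 0.1, no filter, a minimum of 5 FPKM, no trend, quantile normalization, a replicate block, voom on recovered reads (at least 10 on average, scaled by trimmed means of M values) and each library left out. Full values are given for the drug efflux genes, the called genes, the 2 most abundant of each subfamily and those with separate groups. Other members shown beyond that rule were chosen after their values were seen, and of companion lists at most 3 called genes were given in full. Values of some members are not reported here singly, though counts and sums include them. The members and lists were chosen with earlier results of these data known. Shared 50-base stretches and exon overlaps come from GENCODE vM21, and promoters from RefSeq on GRCm38.p6, where 25 of the 34 members matched.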

Additional observations from a re-analysis of the deposited data

How the results depend on the processing

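Abcd3 was called in every alternative. With no filter on low values 681 genes passed in all (4.33% of those tested), and 3 of 34 members, of which 1 lower (Abcb9). Without the mean-variance trend 2 of 26 members passed, 1 higher and 1 lower, against 7.42% of all genes. Quantile normalization left 1 lower, the replicate block 2 in all with 0 lower, and voom called 7 of 31 in all with 4 higher. These 3 fits called 9.83%, 7.72% and 11.7% of all genes they tested, in that order. With 1 library left out the members called were 2 to 4 of 26, with 1 to 2 higher and 0 to 2 lower. The calls over all genes were then 600 to 749 (5.62% to 7.02% of those tested) and those over the companion lists 11 to 13. Where a call was lost the cause was not tested, except that fewer libraries or more tested genes enter some fits by construction. Calls over all genes split 47.0% higher as reported, against 57.2% with voom, where voom gave members a split of 4 higher and 3 lower. The sign of Abcc4 turned with quantile normalization (0.006), voom (0.014) and without rPPAA18C6@Dox replicate 1 (0.008), PBS replicate 1 (0.002) or PBS replicate 3 (0.010), its values with 1 library left out running from -0.022 to 0.010. For the 14 members given by rule (the called and drug efflux genes, the most abundant of each subfamily and those with separate groups), 156 of 182 values under the alternatives kept direction and side of the threshold. Most of these members were not called, and a value that stayed uncalled counts as kept, so this tally does not measure how stable the calls were. All 18 values that lost a call belong to the 4 called genes. With the reported fit included, Abcd3 was called in 14 of 14 fits, Abcf1 in 10, Abca7 in 8 and Abca12 in 6. Outside that tally the sign of Abcb8 turned in 4 alternatives and those of Abca3, Abca8b and Abcc10 in 2 each. Same-numbered libraries did not deviate together (correlations of -0.002, 0.055 and -0.021 across genes). These deviations are from means of only 3 libraries, so they cannot tell whether same-numbered samples were cultured or prepared together. Under the replicate block Abca7 (adjusted p = 0.0674 by limma) and Abca12 (0.0761) were not called. Members under about 30 reads per library allow no statement on change at this depth.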
